A study of Boehmeria nivea with 6 samples.

Results

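In ramie (Boehmeria nivea), 128 of 20693 genes were stem-enriched in the cultivar ZSZ1 but not set apart from root in the wild accession QYZM. RNA was sequenced from stem, root and leaf of 30-day-old plants of the cultivar ZSZ1 and of QYZM, a wild tenacissima accession, with 1 library for each organ of each variety and 6 in all. A member had at least 1 FPKM in ZSZ1 stem, a ZSZ1 stem value (FPKM + 1) at least 4 times that of ZSZ1 leaf and of ZSZ1 root, and a QYZM stem value (FPKM + 1) less than 2 times that of QYZM root. FPKM are fragments counted on a gene, scaled by its length and by library size. These conditions used every library except QYZM leaf, so the levels given for the other 5 libraries describe the choice and carry no test.

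Ramie is grown for the bast fibres of its stem, long phloem fibres with thick cellulose walls. Stem and root share vascular tissues, xylem and phloem, whereas leaf blades are dominated by photosynthetic cells, so genes of fibre and vascular cells can be active in both stem and root. The deposited table gives identifiers without gene names, so what the members encode is not described, and the organ labels could not be checked against named markers. In bulk organs, fewer cells of a type and less RNA per cell cannot be told apart.

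Library totals ran from 306497 to 433435 summed FPKM, lowest in ZSZ1 leaf and highest in QYZM leaf. The table holds no read counts. Steps between values below 0.2 FPKM, read as single fragments, gave relative depths of 0.906 to 1.14 around a mean of 1. Over 14941 expressed genes (at least 1 FPKM in 2 or more libraries), each library correlated best with the same organ of the other variety. The margin was small for QYZM root, with r = 0.873 to ZSZ1 root and 0.868 to QYZM stem, while ZSZ1 root stood at 0.751 to ZSZ1 stem. These are correlations across genes, with no test.

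In cultivar stem the median member lay near the upper quartile of expressed genes, which was 22.8 FPKM, with a median of 9.58 FPKM. Membership itself asks for a raised ZSZ1 stem. ZSZ1 stem held a median of 21.6 FPKM (range 3.29 to 631), against 1.77 FPKM in ZSZ1 root and 1.57 FPKM in ZSZ1 leaf. QYZM stem held 13.3 FPKM, QYZM root 9.62 FPKM and QYZM leaf 2.85 FPKM at the median. At the median the members were thus higher in both stems and in wild root than in cultivar root and both leaves. Over expressed genes the median was 10.4 FPKM in QYZM stem and 9.64 FPKM in QYZM root, so the wild stem and root levels were ordinary. In QYZM leaf the expressed genes had a median of 8.22 FPKM and a lower quartile of 2.94 FPKM, so the members were low there. The classes described below differ from these medians. Together the members made up 1.68% of the summed FPKM in ZSZ1 stem, 0.193% in ZSZ1 root and 0.188% in ZSZ1 leaf, against 0.983% in QYZM stem, 0.814% in QYZM root and 0.195% in QYZM leaf. In ZSZ1 stem 100 of the 128 reached 10 FPKM and 13 reached 100 FPKM.

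**Figure D1:**
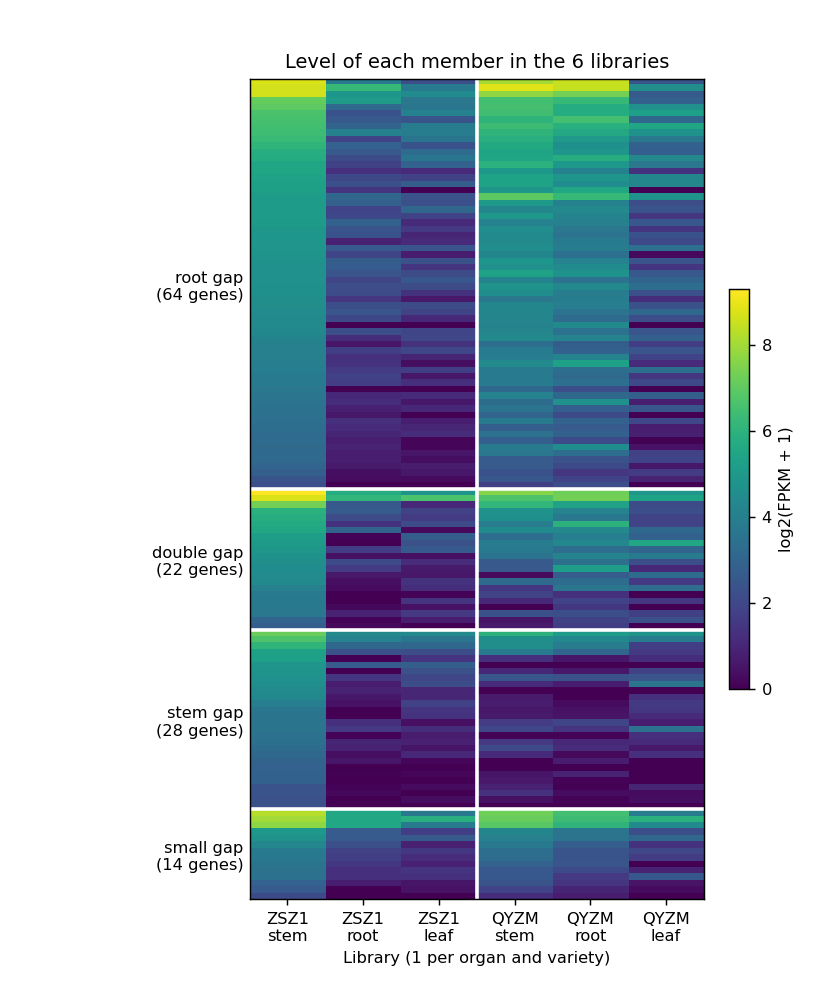
Heat map of log2(FPKM + 1) for the 128 members (rows) in the 6 libraries (columns, 1 per organ and variety), grouped by where the varieties differ and ordered by ZSZ1 stem level. In the root-gap block of 64 genes QYZM stem and QYZM root are both bright, and in the stem-gap block of 28 genes most QYZM columns are dark.

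The question of whether wild root is higher or wild stem lower was answered gene by gene. A gene counted as having a root gap where ZSZ1 root (FPKM + 1) was at most 1/2 of QYZM root, and a stem gap where ZSZ1 stem was at least 2 times QYZM stem. The conditions for membership force the gaps to add up to more than 2-fold, but do not fix how they divide. A root gap alone was found in 64 members, a stem gap alone in 28, both in 22 and neither in 14. The root gap was the larger of the pair in 84 members (65.6%). This was no trait of the members alone, since the same held in 200 of the 330 other genes stem-enriched in ZSZ1 (60.6%) and in 60 of the 86 genes stem-enriched in both varieties (69.8%). Among the 330, a root gap alone was found in 119, a stem gap alone in 46, both in 11 and neither in 154. A root gap alone was thus more frequent than a stem gap alone there too. Over all genes with at least 1 FPKM in either library compared, root gaps were likewise more frequent, at 13.8% against 4.92% for stem gaps. These shares count genes with or without the other gap. The uneven division among the members is therefore not read as particular to them.

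In root, ZSZ1 was lower than QYZM in 119 of 128 members, with a median difference of -1.46 on the log2(FPKM + 1) scale (quartiles -2.30 and -0.80). Over the 14941 expressed genes the median was -0.13. At least 2-fold lower in ZSZ1 root were 86 members, and 13.8% of the 14634 genes with at least 1 FPKM in either root. At least 4-fold lower were 42 members, against 3.11% of those genes. In stem, ZSZ1 was higher than QYZM in 110 members, with a median of 0.70 (quartiles 0.24 and 1.78) against -0.06 over expressed genes. At least 2-fold higher in ZSZ1 stem were 50 members, and 4.92% of 14498 genes, and at least 4-fold higher were 26 members, against 1.04%. Since membership used these libraries, the shares over all genes are given for scale and nothing is read from the excess.

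**Figure D2:**
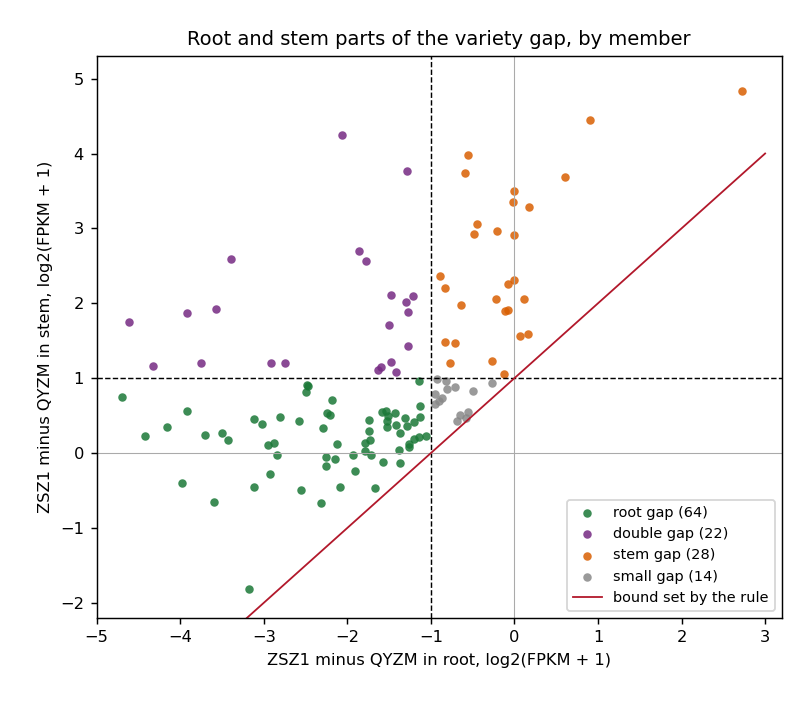
Each point is 1 member, placed by its ZSZ1 minus QYZM difference in root (x axis) and in stem (y axis), both on the log2(FPKM + 1) scale. Dashed lines mark 2-fold, the red line is the bound below which no gene can be a member, and the 64 root-gap genes (green) lie left of the vertical dashed line at stem differences from -1.82 to 0.96.

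The 64 root-gap genes had nearly the same level in both stems, with a median ZSZ1 minus QYZM stem difference of 0.23, and were higher in ZSZ1 stem in 46 and lower in 18. Their root values were a median of 2.77 FPKM in ZSZ1 and 15.7 FPKM in QYZM, a median difference of -2.11. In QYZM they stood at a median of 19.4 FPKM in stem, and their root value was a median of 63.4% of their stem value. In ZSZ1 the root value was 9.59% of the stem value. At the median of this class the wild accession thus had a stem level like that of the cultivar and a root level close to its own stem level. The choice bears on both likenesses. The class leaves out every gene with a stem gap, and membership required a QYZM stem value less than 2 times that of QYZM root. The levels therefore describe the class, and nothing is read from them.

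Bnt04G005785 had the most negative root difference of all members. It stood at 446 FPKM in ZSZ1 stem, 13.1 FPKM in ZSZ1 root and 3.68 FPKM in ZSZ1 leaf, against 266 FPKM in QYZM stem, 363 FPKM in QYZM root and 4.27 FPKM in QYZM leaf. Wild root was its highest library within QYZM, and both leaves were low. The root difference was -4.69 and the stem difference 0.75. Bnt05G008248 was about as abundant, at 409 FPKM in ZSZ1 stem, 73.8 FPKM in ZSZ1 root and 12.8 FPKM in ZSZ1 leaf, against 462 FPKM in QYZM stem, 356 FPKM in QYZM root and 23.1 FPKM in QYZM leaf. Its stem level was slightly lower in the cultivar, and its difference lay in root (-2.26). Of the 18 root-gap genes that were lower in ZSZ1 stem too, 1 was lower by at least 2-fold. This was Bnt02G002302, which had the most negative stem difference, -1.82, with 34.6 FPKM in ZSZ1 stem, 7.36 FPKM in ZSZ1 root and 4.20 FPKM in ZSZ1 leaf, against 125 FPKM in QYZM stem, 74.4 FPKM in QYZM root and 26.4 FPKM in QYZM leaf. It was lower in ZSZ1 in all 3 organs. Bnt07G011705 followed with a stem difference of -0.67 and a root difference of -2.31.

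The 28 stem-gap genes had another pattern, since most of them were low in every wild organ. Their median was 11.0 FPKM in ZSZ1 stem, 0.412 FPKM in ZSZ1 root and 1.06 FPKM in ZSZ1 leaf, against 0.966 FPKM in QYZM stem, 0.438 FPKM in QYZM root and 1.24 FPKM in QYZM leaf. The median stem difference was 2.28, and 18 of the 28 were at least 4-fold higher in ZSZ1 stem. Below 1 FPKM in all 3 QYZM organs were 9 of them, and 4 were listed at 0 in all 3. For a gene near 0 in wild stem and root the bound on QYZM stem over root is met at any low level. Both kinds of member therefore meet the same conditions.

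Bnt06G009599 had the most positive difference in both organs. It stood at 27.6 FPKM in ZSZ1 stem, 5.59 FPKM in ZSZ1 root and 6.06 FPKM in ZSZ1 leaf, and was listed at 0 in the 3 QYZM libraries. Bnt07G011095 was likewise listed at 0 throughout QYZM, with 20.7 FPKM in ZSZ1 stem, 0.874 FPKM in ZSZ1 root and 1.01 FPKM in ZSZ1 leaf. What a listed 0 stands for is not known, so no fold is given. The most abundant stem-gap genes were detected in every library. Bnt01G001260 stood at 104 FPKM in ZSZ1 stem, 16.4 FPKM in ZSZ1 root and 11.5 FPKM in ZSZ1 leaf, against 24.1 FPKM in QYZM stem, 19.3 FPKM in QYZM root and 14.0 FPKM in QYZM leaf. Its roots and leaves differed little between the varieties and its stem difference was 2.06. Bnt10G015206 had 145 FPKM in ZSZ1 stem and 62.5 FPKM in QYZM stem, a difference of 1.20, with 19.8 FPKM in ZSZ1 root and 34.4 FPKM in QYZM root.

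The 22 double-gap genes had a higher stem level in the cultivar and a higher root level in the wild accession. Their median was 24.7 FPKM in ZSZ1 stem and 0.736 FPKM in ZSZ1 root, against 8.73 FPKM in QYZM stem and 11.9 FPKM in QYZM root. In QYZM, stem was below root in 14 of the 22. The class held the 2 members most abundant in ZSZ1 stem. Bnt06G010279 stood at 631 FPKM in ZSZ1 stem, 53.0 FPKM in ZSZ1 root and 27.1 FPKM in ZSZ1 leaf, against 193 FPKM in QYZM stem, 152 FPKM in QYZM root and 29.3 FPKM in QYZM leaf. Its leaf levels were alike in the varieties. Bnt10G014985 stood at 454 FPKM in ZSZ1 stem, 68.0 FPKM in ZSZ1 root and 102 FPKM in ZSZ1 leaf, against 105 FPKM in QYZM stem, 158 FPKM in QYZM root and 40.9 FPKM in QYZM leaf. Bnt07G012109 had 50.4 FPKM in ZSZ1 stem and 1.55 FPKM in ZSZ1 root, against 14.2 FPKM in QYZM stem and 61.4 FPKM in QYZM root, so its order of stem and root was opposite in the varieties.

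Across all members, QYZM stem was above QYZM root in 95, below it in 29 and equal in 4, which were the genes listed at 0. QYZM root was at least 2 times QYZM stem in 8 members, 6.25% of the 128, and at least 4 times in 4. Of the 14787 genes with at least 1 FPKM in either library, 7.34% and 1.99% did so. Only 114 members were among those genes. Membership itself bears on these shares. Bnt02G003631 had the lowest QYZM stem minus root difference, -2.64, with 21.9 FPKM in ZSZ1 stem and 2.15 FPKM in ZSZ1 root, against 5.02 FPKM in wild stem and 36.4 FPKM in wild root. Bnt03G004557 followed at -2.46, with 21.4 FPKM in ZSZ1 stem and 0.549 FPKM in ZSZ1 root, against 0.180 FPKM in wild stem and 5.48 FPKM in wild root. QYZM root was at least 4 times both other wild organs in 2 members.

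**Figure D3:**
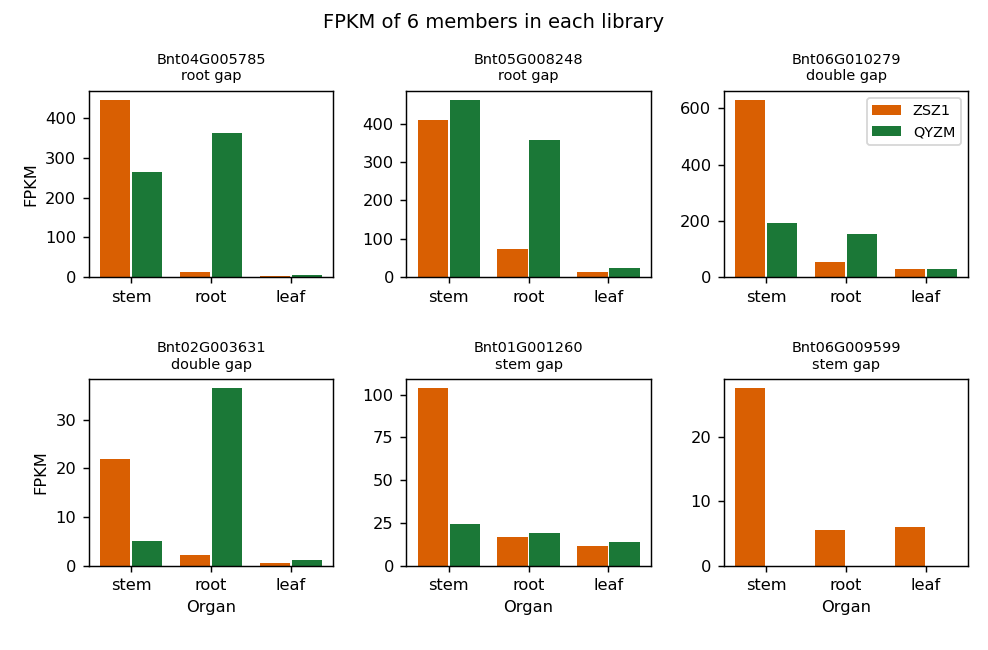
FPKM (y axis, from 0, separate scale in each panel) of 6 members in stem, root and leaf of ZSZ1 (orange) and QYZM (green), 1 library per bar. Bnt04G005785 and Bnt05G008248 have tall QYZM root bars beside short ZSZ1 root bars, whereas Bnt06G009599 has no QYZM bar at all.

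The 14 small-gap genes divided a modest difference between both organs. Their median difference was 0.76 in stem and -0.76 in root. Bnt08G012917 was the most abundant, at 306 FPKM in ZSZ1 stem, 46.8 FPKM in ZSZ1 root and 12.4 FPKM in ZSZ1 leaf, against 153 FPKM in QYZM stem, 89.9 FPKM in QYZM root and 14.5 FPKM in QYZM leaf. Bnt14G019519 was next, at 255 FPKM in ZSZ1 stem, 46.1 FPKM in ZSZ1 root and 56.4 FPKM in ZSZ1 leaf, against 141 FPKM in QYZM stem, 81.3 FPKM in QYZM root and 60.4 FPKM in QYZM leaf. Its QYZM leaf value was the highest of any member.

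QYZM leaf is the library that membership did not use. The median ZSZ1 minus QYZM leaf difference was -0.29 over the members and -0.41 over expressed genes. At least 2-fold lower in ZSZ1 leaf were 29 members, or 22.7% of all 128, and at least 4-fold lower were 8. Only 100 members had at least 1 FPKM in either leaf, and the 29 are among these. Of all 13864 genes at that level, 17% were at least 2-fold lower and 2.83% at least 4-fold lower. ZSZ1 leaf was itself held low by the conditions. After median-of-ratios scaling, with the members kept, the medians were 0.00 over the members and 0.04 over expressed genes, and 18 members were at least 2-fold lower in ZSZ1 leaf. The median root difference was -1.46, but membership used both root libraries and not QYZM leaf. The choice thus bears on the larger difference in root, and nothing is read from it. Bnt07G010732 differed strongly in leaf, with 4.01 FPKM in ZSZ1 leaf and 45.9 FPKM in QYZM leaf. It had a listed 0 in ZSZ1 root against 19.1 FPKM in QYZM root.

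Within the wild plant, most members stood apart from leaf even though they did not stand apart from root. QYZM stem was at least 2 times QYZM leaf in 87 of 128 members (68.0%), against 22.6% of 14772 genes, and at least 4 times in 48 (37.5%), against 5.91%. The 330 other genes stem-enriched in ZSZ1 did so in larger shares, 287 (87.0%) at 2-fold and 176 (53.3%) at 4-fold, including the 86 chosen for it. QYZM root was at least 2 times QYZM leaf in 70 members, against 25.3% of 14972 genes, and at least 4 times in 31, against 6.51%. Both held in 65 members, 50.8%, against 13.4% of 15332 genes. The root-gap genes supplied 47 of these 65, and the stem-gap genes 2. Among the root-gap genes the QYZM stem minus leaf difference was above 0 in 64 of 64, with a median of 2.09, whereas among the stem-gap genes it was above 0 in 13 of 28. QYZM stem and root levels are bounded relative to each other by the conditions, but not directly relative to leaf. Membership did require ZSZ1 stem to be at least 4 times ZSZ1 leaf. Over expressed genes the varieties correlated at r = 0.908 in stem and 0.918 in leaf. The excess over QYZM leaf is therefore not free of the choice, and nothing is read from it.

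The other 330 of the 458 genes stem-enriched in ZSZ1 were the nearest comparison. Of these, 86 were stem-enriched in QYZM by the same 4-fold conditions, and 244 lay between. The members were less abundant, with a median of 21.6 FPKM in ZSZ1 stem against 34.4 FPKM over the 330. The 330 also had lower root values in the cultivar, in 278 cases and at a median difference of -0.75, and 130 were at least 2-fold lower in ZSZ1 root. Their stem difference was 0.48 and their leaf difference -0.37. The members had the larger root difference, and membership itself required a small stem-to-root ratio in QYZM. The QYZM root minus leaf difference had a median of 1.18 over the members, 0.26 over the 330 and 0.38 over expressed genes, and the division of members from the 330 by QYZM stem over root bears on its root side.

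**Figure D4:**
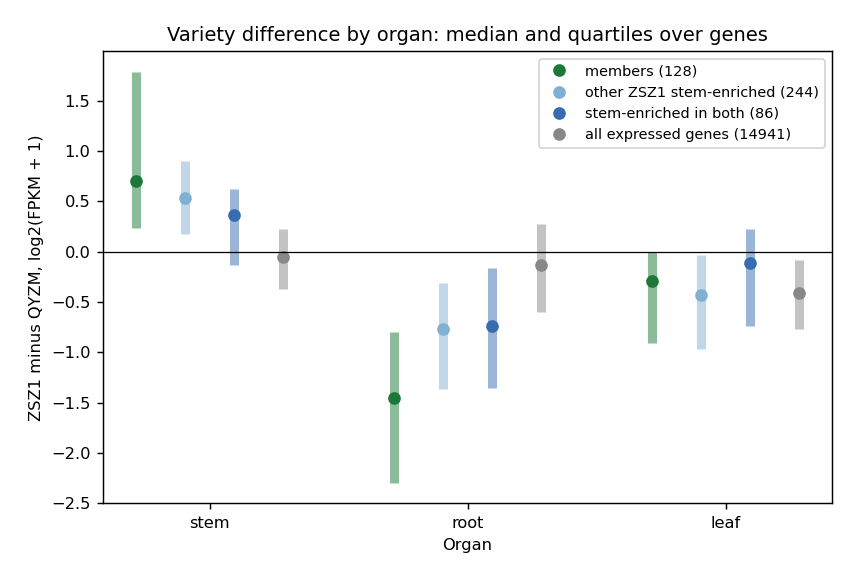
ZSZ1 minus QYZM difference on the log2(FPKM + 1) scale (y axis) in stem, root and leaf for 4 sets of genes; points are medians and bars run between the quartiles over genes, not over replicates. The 128 members lie lowest in root, at -1.46, and in leaf all 4 medians lie between -0.43 and -0.11.

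Some other genes, chosen for being nearly absent from ZSZ1 root, were present in QYZM root, a library that enters every root gap. A set of 14 genes, none of them a member, was chosen for reaching 50 FPKM in the stem of each variety with a ZSZ1 root value of at most 1% of ZSZ1 stem. They were also abundant in leaf, at a median of 198 FPKM in ZSZ1 leaf and 165 FPKM in QYZM leaf. Their ZSZ1 root value was a median of 0.254% of ZSZ1 stem, as chosen, and QYZM root stood at a median of 10.5% of QYZM stem (range 2.77% to 22.7%). The set was chosen on ZSZ1 root with no limit on QYZM root, so the choice bears on the higher share in QYZM root. In the members QYZM root stood at a median of 62.5% of QYZM stem, over the 122 with a QYZM stem value above 0, and the conditions for membership themselves keep wild root near or above 1/2 of wild stem except at low levels. An alternative chosen after the data were seen took 10.5% of the QYZM stem value, the median of the 14 genes, off QYZM root. Then 91 members met the conditions, of which 40 had a root gap alone, 23 a stem gap alone, 20 both and 8 neither. Lowering QYZM root can only remove members and shrink root gaps, so the direction of this change was set in advance and nothing is read from it. Both sets were chosen on these libraries, and the part of stem material in the root difference was not tested.

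With the varieties exchanged, the same conditions gave 44 genes, stem-enriched in QYZM and less than 2 times root in ZSZ1, out of 145 genes stem-enriched in QYZM. As a share of the stem-enriched genes this was 30.3%, close to the 27.9% that the members make of 458. The division of the gap differed: 20 of the 44 had only a lower ZSZ1 stem, 8 only a higher ZSZ1 root, 15 both and 1 neither. The root part was the larger in 10 of 44, against 84 of 128 members. With 1 library in each cell of the design, this contrast has no replicate check. The number of exchanged genes depended on the setting, with 88 at a total of 1000000 and 37 after median-of-ratios scaling. The shares and the division of the gap are given at the reported setting only.

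Values near the bounds show how many members depend on them. Just inside the 4-fold bound in ZSZ1, Bnt01G000512 had a stem value (FPKM + 1) 4.01 times the nearer of the other organs, and just outside it Bnt10G015285 had 3.995 times. Just inside the bound in QYZM, Bnt08G012773 and Bnt03G005015 had stem-to-root ratios of 1.998 and 1.996, and just outside it Bnt04G006243 had 2.002. Bnt04G006243 stood at 29.2 FPKM in ZSZ1 stem and 2.25 FPKM in ZSZ1 root, against 26.1 FPKM in QYZM stem and 12.5 FPKM in QYZM root. Of the 128 members, 58 had a QYZM ratio of at least 1.5, and 128 further ZSZ1 stem-enriched genes had a ratio from 2 up to 3. In ZSZ1, 53 members had a ratio below 5.

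The members were spread over all 14 numbered identifier prefixes and the prefix Un. They made up 0.339% of the genes under prefix 05, the lowest share, and 0.978% under prefix 06, the highest, where 18 of 1841 genes were members. Over all prefixes 128 of 20693 genes were members. Only the extremes are given, the spread was not tested, and nothing is read from it. An identifier directly next to that of another member was found for 11 of 128 members (8.59%). Within their own sets, this held for 4.65% of the 86 genes stem-enriched in both varieties and 4.92% of the 244 between. It held for 0 of the 44 genes found with the varieties exchanged. No share over all genes was taken, and nothing is read from the difference. The longest run, picked out after its values were seen, was Bnt06G010279, Bnt06G010280 and Bnt06G010281, at 631, 33.3 and 24.7 FPKM in ZSZ1 stem, 53.0, 2.67 and 3.58 FPKM in ZSZ1 root, 193, 18.4 and 26.1 FPKM in QYZM stem, and 152, 19.7 and 19.3 FPKM in QYZM root. All 3 had a root gap, and only the first also had a stem gap. If neighbouring genes are near-identical copies, reads could have been split between them in the authors' counting.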

How the data were processed

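RNA of stem, root and leaf was extracted separately from each variety and made into 1 cDNA library per sample, per the labels' protocols. The authors deposited FPKM for 20693 genes in 1 table. Bowtie2 and RSEM are listed, with neither version nor role, per the submitters' processing notes. Assembly, gene models and use of strand were not given in the sources used here. Since FPKM share out 1 library, a few very abundant genes depress the rest. Read counts were not known, so no counting interval is given.

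Values were used as deposited. Differences are of log2(FPKM + 1), where the added 1 shrinks changes of low genes. With 1 library per group and members chosen on these values, no test was made. Members are set beside all genes at 1 FPKM or more in either library compared. Shares of members are over all 128, including those below that level. The members, and the rule that named 2 genes at each end of each description, the 2 most abundant of each class and those at the bounds, were chosen with earlier results of these data known. No list of named pathways could be used, since identifiers carry no names. The class counting was tested on simulated data. Alternatives were other pseudocounts, minimum values, scalings, folds and bounds. Python 3.11.15, numpy 2.4.6, pandas 2.3.3, scipy 1.17.1 and matplotlib 3.10.9 were used.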

Additional observations from a re-analysis of the deposited data

Results flagged for a closer look

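In 8 members the stem and root differed in opposite directions in the varieties: ZSZ1 stem was at least 4 times ZSZ1 root and QYZM root at least 2 times QYZM stem (FPKM + 1). They are listed because the single comparison in each variety runs the other way, not because they are many. They were 6.25% of all 128 members. Of 14787 genes with at least 1 FPKM in either library, 114 of them members, 7.34% had QYZM root at least 2 times QYZM stem. The difference was not tested, since each organ of each variety had 1 library, and membership itself required the ZSZ1 side of it.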

How the results depend on the processing

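No paired analysis was possible because each organ of each variety had 1 library and no replicate number, and none could be left out because the conditions need 5 of the 6. Of the 15 alternatives, 3 (the other gap definitions and no minimum value) leave the share of members with the larger gap in root at the reported 65.6% by construction, and a pseudocount of 0.1 FPKM gave it too. The others gave 57.1% to 71.0%. The counts depended strongly on the setting. The cause was not tested, except where a changed fold, bound or minimum, or a lowered QYZM root, admits or removes genes by construction. Another exception was median-of-ratios scaling, under which 57 of the 60 members lost missed the ZSZ1 leaf bound. Counts that moved more than 1.5 times follow.

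A pseudocount of 0.1 FPKM gave 256 members (122 root gap, 57 stem gap, 63 double gap), 91 with wild leaf at least 2 times cultivar leaf, 106 mirrored genes and 543 other cultivar stem-enriched genes; a pseudocount of 5 gave 56 (26, 16 and 6, with 8 small gap), 9, 17 and 142. A ZSZ1 stem of at least 10 FPKM left 16 stem-gap genes. A total of 1000000 gave 47 stem-gap, 36 double-gap, 8 small-gap and 88 mirrored genes. Median-of-ratios scaling gave 71 members (68 of the 128), 33 root gap, 3 small gap, 9 with the wild leaf higher and 207 other genes, and with members kept 18 with the wild leaf higher. Quantile normalization gave 74, 31, 5, 8 and 217 of the same. A fold of 3 gave 326 members (145 root, 67 stem, 34 double, 80 small), 61 with the wild leaf higher and 101 mirrored genes. A fold of 8 gave 27 (13, 4, 10 and 0), 5 and 7, with 104 other genes. A QYZM bound of 1.5 gave 70 members (29 root, 18 stem, 4 small) and 15 with the wild leaf higher, and a bound of 1 gave 29 (12 root, 3 stem, 14 double, 0 small), 6 and 26 mirrored genes. Defining gaps at 1.5-fold gave 44 double and 2 small, and at 4-fold 40 root, 2 double and 62 small. Taking 10.5% of QYZM stem off QYZM root, added after the data were seen, gave 40 root gap, 8 small gap, 18 with the wild leaf higher and 83 mirrored genes. The median leaf difference of the members was 0.00 after each of the scalings, where the median over expressed genes was -0.01 to 0.04.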
